A study of Rattus norvegicus with 6 samples.

Results

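Long non-coding RNA genes of cultured rat nucleus pulposus cells are described here: every row of the gene table typed lincRNA, lncRNA or antisense and not protein_coding, on a numbered chromosome, whose counts over the 6 libraries summed to at least 60. The rule took 288 of 19088 gene rows, 275 typed lincRNA (a long RNA transcribed from between coding genes) and 13 typed antisense (a long RNA from the strand opposite another gene). It used the summed count but not the direction of any difference, so the levels that let a gene in are a description, while the comparison of groups was tested over all genes. Of 709 rows typed this way, 666 lay on numbered chromosomes and 43 on X or Y, and 378 of the 666 had fewer than 60 counts.

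Nucleus pulposus cells fill the soft centre of the disc between vertebrae, and these were primary cells of the SD rat strain kept in serum-containing medium. In the rShh group, 3 samples had been given recombinant Sonic hedgehog, a secreted ligand, at 200 ng/ml for 48 h, and in the Control group 3 samples had been given the solvent DMSO over the same 48 h. RNA was selected by its poly(A) tail, so RNAs without a tail are under-represented. Counts over all genes summed to 65116846 to 70031072 per rShh library and to 50758195 to 55501124 per Control library. Whether a group's samples are separate cultures or animals is not stated in the labels, so the p-values speak of the spread among these samples only, and that spread may be technical.

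The groups stood apart in transcripts of the sex chromosomes. Eif2s3y, a translation factor gene on Y, had 3871, 4159 and 3868 counts in the rShh libraries and 0 in each Control library, and Kdm5d, a histone demethylase gene on Y, had 2276, 2335 and 2235 counts in rShh and 0 in each Control library. The lincRNA row AABR07039356 on X went the other way, with 1, 2 and 12 counts in rShh and 2444, 2037 and 1156 counts in Control. The labels do not say that the groups came from the same animals, and these values allow that they did not. For every gene described here, an effect of the ligand and a difference in the origin of the cells cannot be told apart in this design. Mitochondrial genes took 3.25% to 3.36% of the counts in rShh and 1.97% to 2.28% in Control, and the part of this in the results was not tested.

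Long non-coding RNAs do not serve as templates for a protein, and many are made at low levels and from few exons. Some act where they are made, on the coding genes beside them, others bind proteins or chromatin elsewhere, and others are mainly hosts from whose introns small nucleolar RNAs (snoRNAs, guides of RNA modification) are cut. In Hedgehog signalling the ligand binds the receptor Patched, which releases Smoothened and activates the Gli transcription factors. Annotation of these RNAs in the rat is thin: 234 of the 288 genes carried only the name of a genomic clone (AABR or AC), 49 a numbered LOC name, and 218 had no description. Clone names are not unique, since 24 of the genes shared theirs with another, and such genes are told apart here by position or transcript length. Of 79 names of known long non-coding RNAs that were looked for, 1 was carried by a gene of the set: Tug1, a widely expressed RNA named for its upregulation by taurine in the retina.

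By NCBI gene number or symbol, 22 of the 288 genes could be matched to RefSeq, which types 13 of them lncRNA, 8 protein_coding and 1 a transcribed pseudogene. Among the 13 there were 5 that differed between the groups and have a promoter sequence in RefSeq, and these are shown because they are the changed genes whose start site is annotated. Each runs from 250 bases before the start to 50 after it, on the transcribed strand, from RefSeq's GRCr8 build: LOC102549726 at chr20:3880958-3881257 on the plus strand, Tug1 at chr14:82750485-82750784 on the minus strand, LOC102553018 at chr2:237225471-237225770 on the plus strand, LOC102549948 at chr9:31019515-31019814 on the minus strand and LOC102551339 at chr14:30979198-30979497 on the minus strand, the first of its 3 listed starts. The deposited table has LOC102549726 on the minus strand and the other 4 on the strand RefSeq gives, so the window printed for LOC102549726 may not be the start of the deposited row. Capitals mark matches, on either strand, to GGGCGG (the GC box bound by Sp1), CCAAT (bound by NF-Y), TATAAA (the TATA box) and GACCACCCA (the core bound by Gli factors).
LOC102549726: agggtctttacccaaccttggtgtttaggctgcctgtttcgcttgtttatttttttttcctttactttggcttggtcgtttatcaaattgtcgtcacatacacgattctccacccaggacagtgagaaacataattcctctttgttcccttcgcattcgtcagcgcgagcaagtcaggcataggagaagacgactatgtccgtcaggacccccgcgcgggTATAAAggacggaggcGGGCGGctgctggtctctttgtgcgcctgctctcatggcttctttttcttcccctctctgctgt
Tug1: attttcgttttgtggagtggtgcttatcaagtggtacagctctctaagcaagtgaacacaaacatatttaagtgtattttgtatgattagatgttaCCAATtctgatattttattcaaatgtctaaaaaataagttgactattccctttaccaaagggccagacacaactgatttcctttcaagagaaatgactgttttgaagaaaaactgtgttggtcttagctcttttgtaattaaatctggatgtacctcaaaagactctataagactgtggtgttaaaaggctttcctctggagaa
LOC102553018: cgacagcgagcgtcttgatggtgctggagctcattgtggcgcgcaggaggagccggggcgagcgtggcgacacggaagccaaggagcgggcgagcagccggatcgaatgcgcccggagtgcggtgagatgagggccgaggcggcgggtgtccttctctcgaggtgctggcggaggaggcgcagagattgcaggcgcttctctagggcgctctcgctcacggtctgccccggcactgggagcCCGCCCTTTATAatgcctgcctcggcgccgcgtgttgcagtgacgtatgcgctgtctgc
LOC102549948: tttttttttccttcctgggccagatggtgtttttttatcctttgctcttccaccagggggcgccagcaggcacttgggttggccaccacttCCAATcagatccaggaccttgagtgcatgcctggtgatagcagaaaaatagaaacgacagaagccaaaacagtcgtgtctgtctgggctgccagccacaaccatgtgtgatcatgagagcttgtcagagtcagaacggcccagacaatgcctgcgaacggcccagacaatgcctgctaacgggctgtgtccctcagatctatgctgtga
LOC102551339: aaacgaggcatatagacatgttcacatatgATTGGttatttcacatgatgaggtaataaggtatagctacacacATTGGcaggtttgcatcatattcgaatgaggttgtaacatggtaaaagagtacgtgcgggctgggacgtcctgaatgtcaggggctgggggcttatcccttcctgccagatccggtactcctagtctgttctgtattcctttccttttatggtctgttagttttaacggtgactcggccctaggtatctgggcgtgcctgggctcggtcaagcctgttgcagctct

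LOC102549726 held TATAAA at 30 to 25 bases before the start and GGGCGG at 14 to 9 bases before it. LOC102553018 held the reverse complements of GGGCGG and TATAAA side by side, the first from 9 to 4 bases before its start. Its window shared 131 bases with that of Ccn1, a matricellular protein gene on the other strand, and the 2 starts lay 32 bases apart. Tug1 and LOC102549948 held CCAAT once each and LOC102551339 held its reverse complement at 2 places. None of the 5 windows held GACCACCCA on either strand, which says only that these letters are not in these windows. Over all 33469 promoter windows in RefSeq, GGGCGG was found in 33.1%, CCAAT in 37.5%, TATAAA in 14.2% and GACCACCCA in 0.385%.

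The genes were weakly expressed and unevenly so. Their median level was 0.61 FPKM (fragments scaled to transcript length and to library depth, so that genes can be compared), with a range of 0.025 to 60.2 FPKM over the means of all 6 libraries. The median of the 13706 protein-coding rows that met the same count minimum was 6.15 FPKM. Of the 288 genes, 106 reached 1 FPKM, 27 reached 5 FPKM and 14 reached 10 FPKM. The 10 with the most counts held 47.8% of all counts on the set. By the transcript with the most counts, 17 genes had 1 exon, 144 had 2 and 127 had 3 or more, and the median transcript was 1112 nt long (134 to 6628 nt).

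Together the 288 genes took 0.138%, 0.141% and 0.138% of the gene counts in the 3 rShh libraries, against 0.121%, 0.123% and 0.113% in the 3 Control libraries. The groups did not overlap, with means of 0.139% ± 0.0015 in rShh and 0.119% ± 0.0055 in Control (SD, n = 3 each), and no test was made on this sum. Without the gene with the most counts, AABR07021544, the shares averaged 0.125% in rShh and 0.113% in Control. Between 277 and 280 of the genes had a count in each rShh library, against 263 to 268 in each Control library, and the rShh libraries were the deeper ones. In bulk RNA, fewer cells that make an RNA and less of it per cell cannot be told apart.

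The most abundant locus was a stretch of 6.97 kb on the minus strand of chromosome 1 that the table splits into 3 rows, all named AC134224, with gaps of 1282 and 1187 bases between them. All 3 were among the 10 highest levels and all 3 were higher in rShh. The row at chr1:221158098-221158792, 1 exon of 695 nt, was at 93.2, 107 and 106 FPKM in the rShh libraries, against 23.9, 19 and 11.9 FPKM in the Control libraries. The row at chr1:221154561-221156910 was at 40.1, 50.5 and 47.6 FPKM in rShh and at 18.8, 17.1 and 12.1 FPKM in Control. The row at chr1:221151827-221153278 was at 16.3, 25.4 and 21.0 FPKM in rShh and at 7.96, 5.20 and 3.11 FPKM in Control. In each row every rShh library was above every Control library, and Control library 3 was the lowest of the 6. By edgeR the log2 changes were 2.47 ± 0.19, 1.51 ± 0.14 and 1.93 ± 0.28 (± standard error derived from the F statistic), with adjusted p of 2.46e-06, 8.04e-06 and 0.000182.

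LOC102549726, at chr20:4871264-4873982 on the minus strand, was the next most abundant gene that changed, and it changed the other way. It was at 19.1, 21.2 and 20.5 FPKM in the rShh libraries, against 59.4, 64.8 and 67.2 FPKM in the Control libraries. The groups were far apart, with a 3.17-fold lower mean in rShh (edgeR log2 change of -1.66 ± 0.07, adjusted p = 3.46e-08). The rows of 2 snoRNAs, Snord52 and Gm25744, lay inside it on the same strand, with 6 and 47 counts over all 6 libraries, as reads from poly(A)-selected RNA. It also overlapped a row of the class I histocompatibility gene RT1-CE7 on the same strand, which rose by 1.45 on the log2 scale (adjusted p = 0.00027), so reads of the overlap cannot be assigned with certainty. One other gene of the 288, LOC100912181, held a snoRNA row, and none held any of the 465 miRNA rows.

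**Figure D1:**
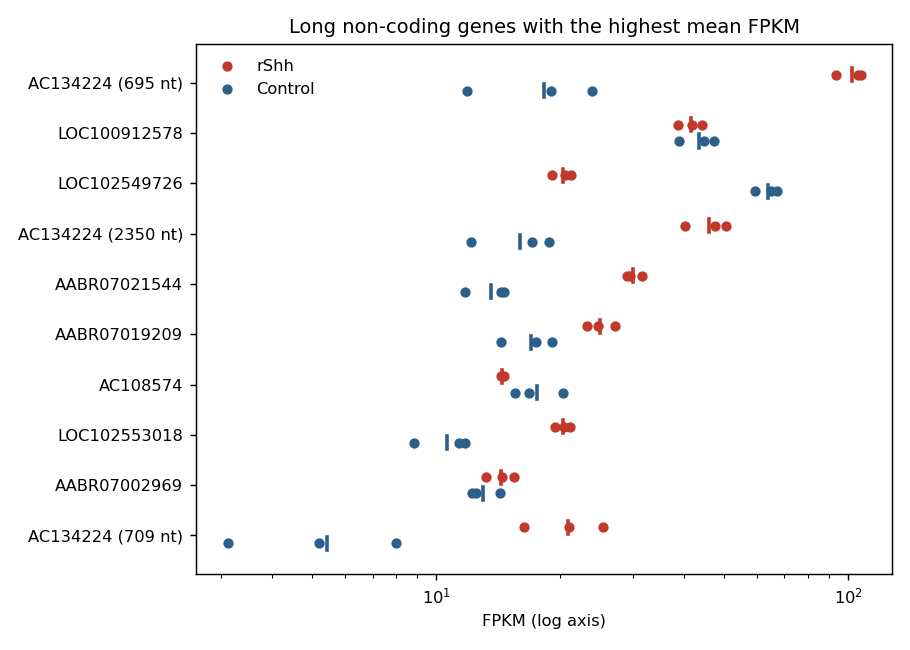
FPKM in each library (points) and group mean (short bars) of the 10 long non-coding genes with the highest mean FPKM, rShh above Control in each line, log axis. The 3 AC134224 rows, told apart by transcript length, were higher in every rShh library, and LOC102549726 was lower, at 19.1 to 21.2 FPKM in rShh against 59.4 to 67.2 FPKM in Control.

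AABR07021544, at chr13:77784808-77822333 between the tenascin genes Tnr and Tnn, had 9057, 10095 and 8819 counts in rShh and 3770, 3703 and 2812 counts in Control. It averaged 140 ± 5.18 CPM (a count scaled to library depth) in rShh and 63.7 ± 7.25 CPM in Control (SD, n = 3 each), which is 2.20-fold higher in rShh (adjusted p = 1.51e-06). Tnn, the coding gene of tenascin-N, an extracellular matrix protein, ends 7049 bases from it and rose to 1320 ± 63.9 CPM in rShh, against 197 ± 19.3 CPM in Control. LOC102553018, at chr2:251534907-251607676, was at 35.5, 35.6 and 33.0 CPM in rShh, against 15.0, 20.3 and 19.6 CPM in Control, with no overlap (log2 change of 0.92 ± 0.11, adjusted p = 6.37e-05). Ccn1, with which it shares the promoter window shown above and from which it lies 2595 bases away in the deposited coordinates, fell by 0.36 on the log2 scale (adjusted p = 0.0015).

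The remaining highly expressed genes moved little. AABR07019209, which lies within Mycbp2 on the opposite strand, was at 24.7, 23.2 and 27.1 FPKM in rShh and at 17.5, 14.4 and 19.1 FPKM in Control (log2 change of 0.55, adjusted p = 0.00407). Mycbp2 itself rose by 0.55 on the log2 scale (adjusted p = 0.0033). AC108574 was at 14.4, 14.3 and 14.6 FPKM in rShh and at 16.8, 20.3 and 15.5 FPKM in Control (log2 change of -0.29, adjusted p = 0.0225), and the call was lost without any 1 of 4 libraries (adjusted p of 0.0565 without rShh replicate 1, 0.0749 without rShh replicate 2, 0.0622 without rShh replicate 3 and 0.075 without Control replicate 2). The change was -0.17 without Control replicate 2 and -0.30 to -0.27 without an rShh library. LOC100912578 averaged 41.6 ± 2.82 FPKM in rShh and 43.5 ± 4.30 FPKM in Control, and AABR07002969 averaged 14.3 ± 1.11 FPKM in rShh and 13 ± 1.15 FPKM in Control (SD, n = 3 each). Neither of these passed the test (adjusted p = 0.43 and 0.396), and their groups overlapped.

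Tug1, at chr14:83878295-83887584 on the minus strand, is the one gene of the set with an established non-coding name and a body of work behind it. It had 3307, 3419 and 3029 counts in rShh and 1674, 1439 and 1115 counts in Control. Every rShh library was above every Control library also after scaling, at 51.3, 49.1 and 46.3 CPM in rShh against 29.6, 26.8 and 22 CPM in Control. It rose 1.87-fold (log2 change of 0.90 ± 0.11, adjusted p = 4.22e-05 by edgeR). Its neighbour Morc2, a chromatin remodelling ATPase gene that starts 1505 bases away on the other strand, was at 43.8 ± 2.49 CPM in rShh and 47.9 ± 4.79 CPM in Control and did not pass the test (adjusted p = 0.215). Proteins have lent their names to 2 more genes of the set: Ly6l, a member of the lymphocyte antigen 6 family, averaged 2.91 ± 0.547 FPKM in rShh and 5.00 ± 0.966 FPKM in Control and fell by 0.79 on the log2 scale (adjusted p = 0.0059), and Rfwd3, a ubiquitin ligase of DNA repair, averaged 3.47 ± 0.276 FPKM in rShh and 2.96 ± 0.222 FPKM in Control and did not pass (adjusted p = 0.131).

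Whether the set as a whole differed between the groups was read from a test over all genes. Of the 288 genes, 275 had enough counts to be tested, of which 60 were higher in rShh, 34 were lower and 181 did not pass. The 94 called are 34.2% of those tested, where 60.3% of all 14775 genes tested were called, 31.5% higher and 28.8% lower. The median log2 change was 0.11 over the 275 genes and 0.01 over all genes. A call is harder to reach at low counts. Among genes with fewer than 600 counts in sum, 44 of 179 long non-coding genes were called (24.6%), against 29.8% of all genes tested in that range. At 600 counts or more, 50 of 96 were called (52.1%), against 67.6% of all genes. Genes were not matched in count within a class, and the upper class has no upper bound. The median summed count was 318 in the set and 6494 in the protein-coding rows with the same count minimum.

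**Figure D2:**
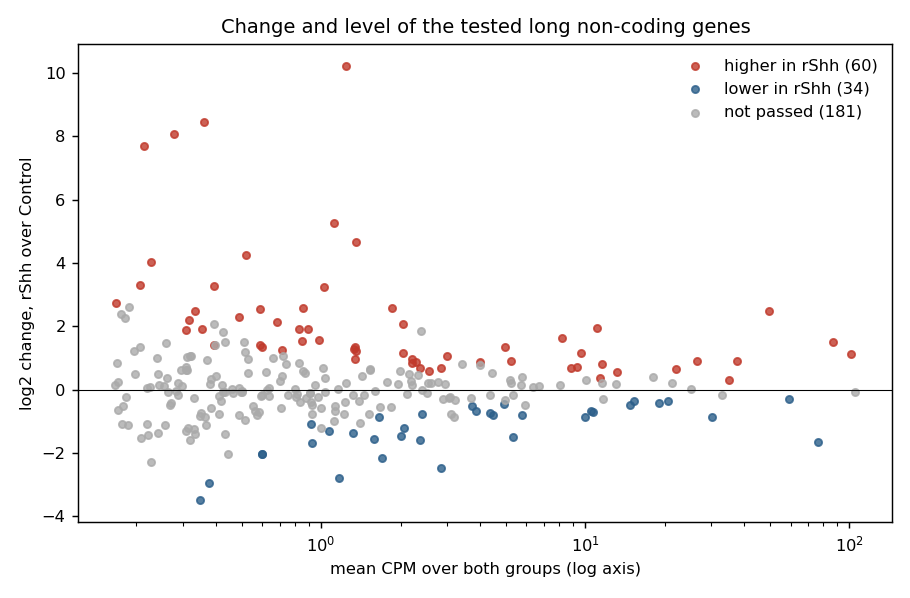
Log2 change, rShh over Control, against mean CPM (log axis) for the 275 long non-coding genes tested, 1 point a gene. The 60 genes called higher reach larger changes than the 34 called lower, and most of the 181 that did not pass lie at low CPM. The change fitted for a gene at 0 in Control depends on the model's prior count.

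**Figure D3:**
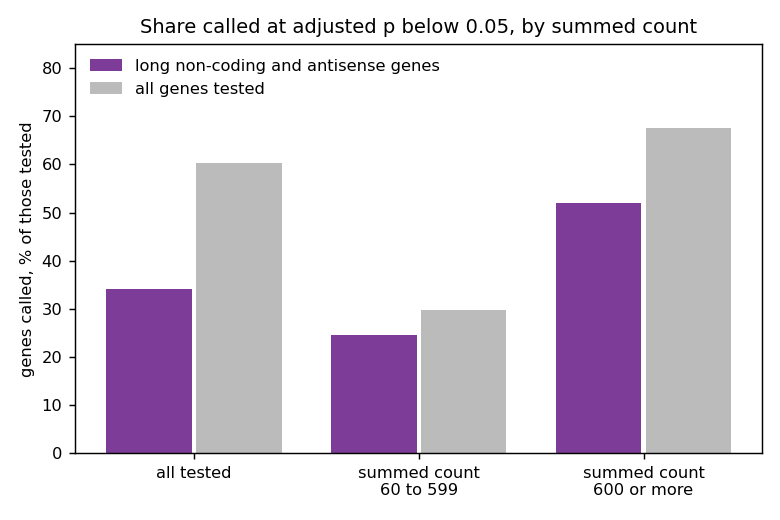
Share of tested genes called at an adjusted p below 0.05, for long non-coding and antisense genes (left bar) and all genes (right bar), over all and by summed count. The share was 24.6% against 29.8% below 600 counts, and 52.1% against 67.6% at 600 counts or more. Genes were not matched in count within a class.

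The genes called higher were less abundant than those called lower, with a median of 0.69 FPKM and 506 counts against 2.24 FPKM and 1131 counts. In 125 of the 275 genes the groups did not overlap, higher in 75 and lower in 50, where 68.1% of all genes tested had groups that did not overlap. Changes of at least 2-fold by the fitted value were found in 42 of the 60 genes called higher and in 17 of the 34 called lower. The same share over all genes is not given here, and at low counts small changes are less often called. The 13 antisense genes held 1 call among the 12 tested, and the 263 lincRNA genes tested held 60 calls higher and 33 lower.

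At the low end, 6 of the 288 genes had no count in any Control library, 4 of them called higher, and 1 had none in any rShh library and was not tested. Each of these genes met the count minimum through the other group alone, and the rShh libraries were the deeper ones. The same share over all genes is not given here, so these numbers are a description. AABR07033666, at chr11:34310191-34313728 on the minus strand, had 190, 140 and 164 counts in rShh and 0 in each Control library. Set against 3 counts per library, the number a count of 0 allows, it was at least 44.4-fold higher in rShh (adjusted p = 8.55e-06). Its start faces that of Sim2, a transcription factor gene, across 2567 bases, and Sim2 was at 73.0 ± 3.10 CPM in rShh and at 0.267 ± 0.24 CPM in Control. LOC102551339 had 35, 77 and 33 counts in rShh and 0 in each Control library, at least 12.8-fold higher (adjusted p = 0.000366), and AABR07019442 had 48, 25 and 37 against 0, at least 9.93-fold higher (adjusted p = 0.000489). The last of the 4, AABR07061382 at chr4:120129194-120133017, had 46, 13 and 25 counts in rShh and 0 in each Control library, at least 7.63-fold higher (adjusted p = 0.00156). It starts 696 bases from Gata2, a zinc-finger transcription factor gene on the other strand, which was at 2.65 ± 0.125 CPM in rShh and 0.147 ± 0.146 CPM in Control. LOC102551339, AABR07019442 and AABR07061382 were named after their values were seen.

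Among genes with a mean of at least 50 counts per library in the higher group and groups that did not overlap, 47 were higher and 31 lower in rShh, 28.0% and 18.5% of the 168 tested genes with that mean. Of all genes tested with that mean, 33.5% were higher and 31.1% lower by the same rule. Within these 47, the largest increase after AABR07033666 was that of AABR07051515 on the minus strand of chromosome 3, with 142, 125 and 169 counts in rShh and 6, 3 and 0 counts in Control, a 40.6-fold higher mean CPM (log2 change of 5.25, adjusted p = 4.47e-05, and 6.16 without Control replicate 1). It lies 14825 bases from Ggta1, the gene of the enzyme that adds alpha-galactose to cell surface sugars, which was at 48.0 ± 2.74 CPM in rShh and 1.71 ± 0.665 CPM in Control. AABR07059380, inside the gene of the presynaptic protein Pclo on the same strand, had 194, 144 and 178 counts in rShh and 0, 2 and 14 in Control (log2 change of 4.66 ± 0.75, adjusted p = 0.000359), which became 7.01 without Control replicate 3 and 4.05 without Control replicate 1. Pclo itself rose by 1.29 on the log2 scale (adjusted p = 3.47e-05). AABR07018087 on chromosome 15 had 72, 74 and 52 counts in rShh and 0, 5 and 3 in Control (4.25 ± 0.78, adjusted p = 0.00086), which became 5.03 without Control replicate 2 and 3.66 without Control replicate 1. These 3 long non-coding genes were close to absent in Control cells, where no library held more than 14 of their counts.

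The other large increases were smaller and more variable. LOC102549948 on chromosome 9 had 129, 100 and 62 counts in rShh and 4, 9 and 25 in Control (log2 change of 2.59 ± 0.63, adjusted p = 0.0049, and 3.60 without Control replicate 3), while Tram2, a coding gene 18374 bases away, showed a log2 change of -0.01. AABR07016572 had 159, 235 and 245 counts in rShh and 53, 26 and 8 in Control (2.58 ± 0.48, and 3.29 without Control replicate 1), and AABR07004269 had 97, 57 and 45 counts in rShh and 6, 13 and 8 in Control (2.56 ± 0.57). In both genes every rShh library was above every Control library. AABR07059159 had 41, 76 and 47 counts in rShh and 0, 18 and 8 in Control (2.31 ± 0.87, adjusted p = 0.0414), a call that was lost without rShh replicate 1, 2 or 3 (adjusted p of 0.0775, 0.142 and 0.0873), without Control replicate 3 (0.0893) and with no filter on low counts (0.0694). Its log2 change was 3.38 without Control replicate 2 and 1.71 without Control replicate 1.

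Within the 31, the largest decrease was that of AABR07066820, at chr9:17500555-17502323, with 25, 22 and 12 counts in rShh and 128, 92 and 110 in Control, a 6.93-fold lower mean CPM in rShh (log2 change of -2.78 ± 0.39, adjusted p = 0.000157). AABR07030598 on chromosome 10 had 57, 67 and 50 counts in rShh and 260, 242 and 270 in Control (-2.46 ± 0.22, adjusted p = 5.6e-06). It lies 240 bases from RGD1565033 on the same strand, which fell by 1.41 on the log2 scale. AABR07052502 had 0, 38 and 86 counts in rShh and 107, 220 and 120 in Control (-2.16 ± 0.84, adjusted p = 0.0471). The call was lost without rShh replicate 2 (adjusted p = 0.122), without Control replicate 2 (0.168) or 3 (0.068), with no filter on low counts (0.0714) and by DESeq2 (0.265), with log2 changes of -2.27 to -1.78 in these fits. Without rShh replicate 3 the change was -3.32. AABR07001068 and AABR07000411 had 9, 18 and 20 counts each in rShh, against 38, 74 and 42 counts and 59, 46 and 49 counts in Control, log2 changes of -2.02 ± 0.54 and -2.02 ± 0.50. AABR07004272, inside Fam174b on the same strand, had 44, 20 and 23 counts in rShh and 84, 60 and 83 in Control (-1.68 ± 0.44), where Fam174b itself fell by 2.01. AC119762, 1 exon of 540 nt, had 198, 175 and 179 counts in rShh and 420, 384 and 455 in Control (-1.5 ± 0.16).

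**Figure D4:**
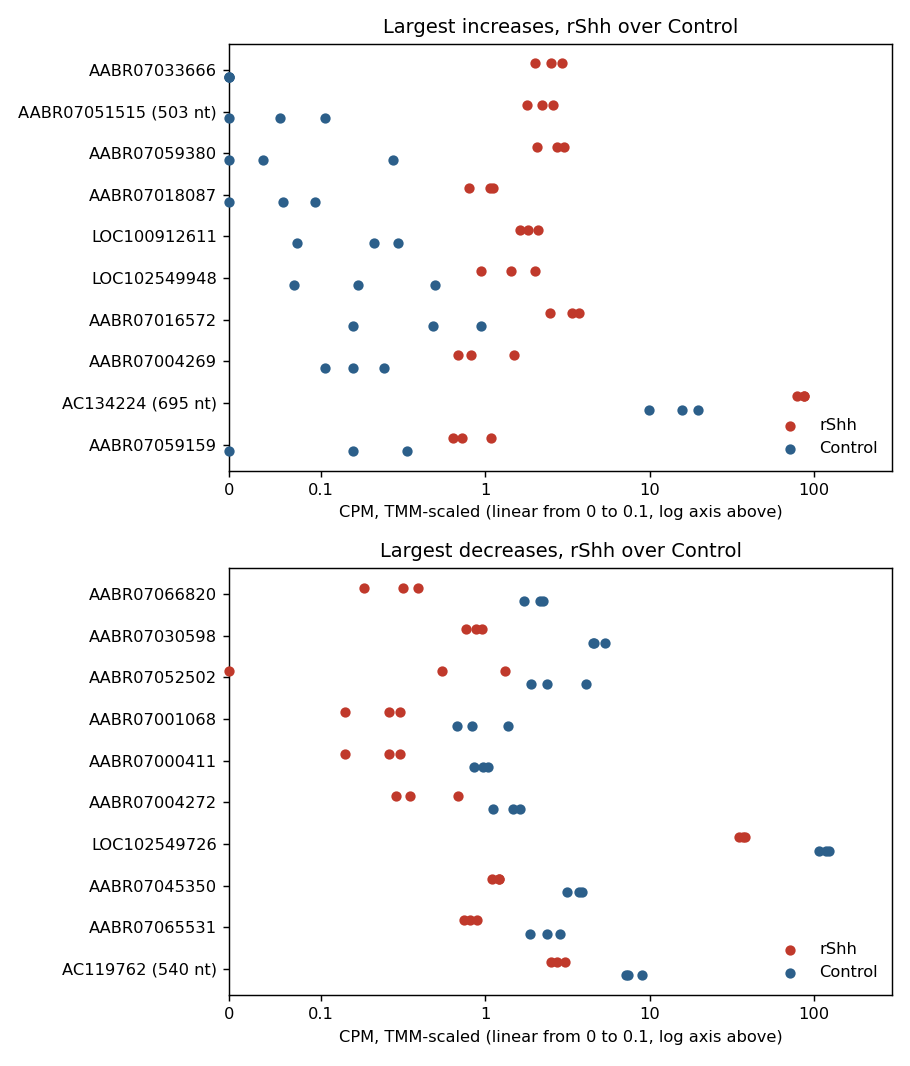
TMM-scaled CPM in each library, rShh above Control in each line, for the 10 largest increases and the 10 largest decreases among called genes with separate groups and a mean of at least 50 counts in the higher group (axis linear from 0 to 0.1, log above). Among the increases, AABR07033666 was at 2.01 to 2.95 CPM in rShh and at 0 in every Control library. Among the decreases, AABR07052502 shows the widest spread.

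Some loci can be placed against RefSeq by the coding genes on either side, which does not show that the 2 annotations describe 1 transcript. AABR07065531, at chr6:133667975-133676907, lies between Dlk1 and Ppp2r5c, as does Meg3, an imprinted RNA expressed from the maternal copy, in RefSeq. It had 52, 52 and 58 counts in rShh and 134, 154 and 95 in Control, with no overlap (-1.54 ± 0.29, adjusted p = 0.0011), while Dlk1 was close to 0 in both groups. AABR07044017 lies beside the transcription factor gene Foxf1, in an interval where RefSeq has Fendrr, an RNA needed for heart and body wall development in the mouse. AABR07044017 was at 3.37, 2.86 and 3.54 CPM in rShh and at 4.12, 5.81 and 6.39 CPM in Control, lower in every rShh library (-0.74 ± 0.20, adjusted p = 0.0093), where Foxf1 was at 50.8 ± 3.59 CPM in rShh and 47.0 ± 4.74 CPM in Control (adjusted p = 0.299). A second gene of that interval, AABR07044011, had 35, 46 and 32 counts in rShh and 28, 29 and 44 in Control and did not pass (-0.17, adjusted p = 0.78), nor did AABR07044049, between Zcchc14 and Gse1, where RefSeq's order of genes also places Fendrr (0.23, adjusted p = 0.536). AABR07058158 follows Myc on chromosome 7, where RefSeq has Pvt1, and was at 31.8, 32.2 and 29.0 CPM in rShh and 34.0, 35.8 and 35.3 CPM in Control (-0.18, adjusted p = 0.0641, not passed). AABR07044017 and AABR07058158 were chosen after their values were seen.

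Of the 13 antisense genes, 12 overlapped a coding gene on the other strand. AABR07045350, opposite the tyrosine kinase gene Fyn at chr20:44602776-44617211, was the one called. It had 78, 85 and 72 counts in rShh and 210, 207 and 159 in Control, a 3.03-fold lower mean in rShh (-1.60 ± 0.22, adjusted p = 0.000136). Fyn was at 15.5 ± 1.5 CPM in rShh and 45.6 ± 1.57 CPM in Control, a log2 change of -1.55. AABR07030527, opposite the microtubule protein gene Mapt, had 45, 73 and 34 counts in rShh and 108, 65 and 68 in Control and missed the threshold (-0.97, adjusted p = 0.0505). Mapt showed a log2 change of -0.74 (adjusted p = 0.0521). The libraries mark the strand, but whether the counting used it is not given in the sources used here, so reads of a gene and of its antisense partner cannot be told apart.

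How the genes changed beside their coding neighbours was counted next. Within 50 kb of the nearest coding gene lay 197 of the 288 genes, 100 of them within 5 kb, and 26 overlapped one, 17 on the opposite strand and 9 on the same. In 167 pairs within 50 kb both genes were tested, and in 40 pairs both were called. Of these 40, 34 moved in the same direction (85%). For coding genes and their own nearest coding gene within 50 kb, 1718 of 2572 pairs with both called moved in the same direction (66.8%). Spearman's rho of the log2 changes was 0.43 over the 167 pairs and 0.23 over 6634 pairs of coding genes, as descriptions: the pairs come from the same 6 libraries, and whether the 2 kinds of pair differ was not tested.

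The pairs can be split by overlap and orientation. Among pairs that overlapped, 7 of 8 moved in the same direction, and among pairs 1 base to 50 kb apart, 27 of 32 did. With starts facing each other (head to head), 10 of 11 pairs with both called moved alike, against 15 of 19 pairs that lie one behind the other on the same strand and do not overlap. Besides Sim2, Gata2, Tnn and Ggta1, such pairs included the following, named after their values were seen. AABR07030366 faces Col1a1, the gene of a type I collagen chain, across 2497 bases and was at 7.21, 7.13 and 6.95 CPM in rShh and at 14.0, 13.7 and 11.2 CPM in Control (-0.87 ± 0.12, adjusted p = 0.000169), where Col1a1 fell by 1.10. AABR07015917 lies 96 bases from Aebp1, a collagen-binding protein gene, and had 28, 40 and 44 counts in rShh and 12, 5 and 7 in Control (log2 change of 1.9 ± 0.57, adjusted p = 0.0151), where Aebp1 showed a change of 1.69. The AABR07049695 gene at chr5:133717759-133721348 rose by 1.28 on the log2 scale, head to head with the transcription factor gene Foxd2, which rose by 2.00. AABR07020987 rose by 1.91, head to head with the matrix gene Prelp, which rose by 2.68.

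Not every changed gene had a changed neighbour. Of the 53 called genes with a tested coding neighbour within 50 kb, 34 had one called in the same direction, 6 in the opposite direction and 13 had one that did not pass. Of all genes tested, 60.3% were called in either direction, and 67.6% of those with 600 counts or more, so a called neighbour is common for any gene. Among the 6 were LOC102549726 with RT1-CE7, AC108574 with Abhd10 and AABR07027137 with Fbxw17. Tug1 beside Morc2 and AABR07044017 beside Foxf1 were among the 13.

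**Figure D5:**
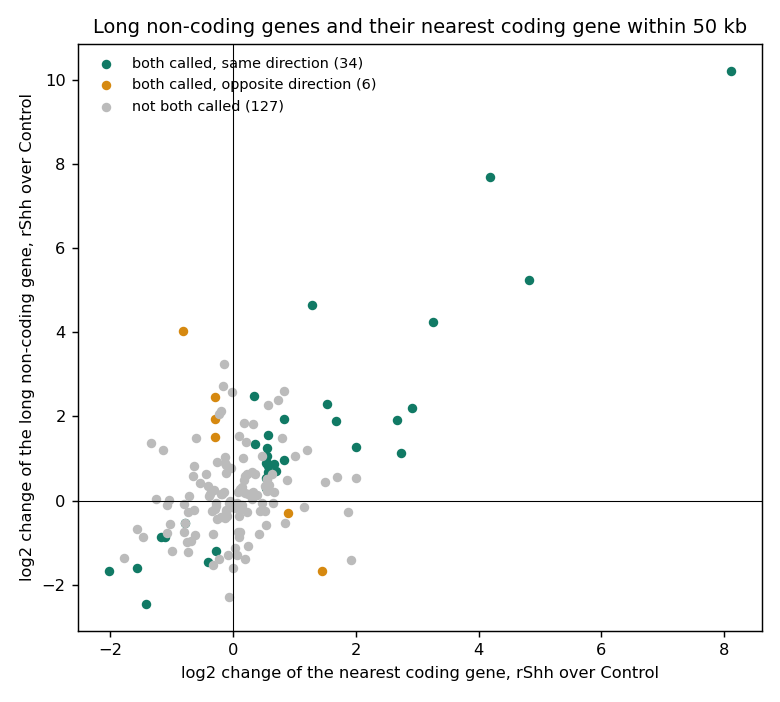
Log2 change of each long non-coding gene (vertical) against that of its nearest coding gene within 50 kb (horizontal), rShh over Control, 167 pairs. In 34 of the 40 pairs with both genes called the direction was the same, and the points farthest to the upper right are AABR07033666 with Sim2 and AABR07061382 with Gata2, where the fitted change of the long non-coding gene depends on the prior count, as it was at 0 in Control.

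A further group consists of genes described by the name of a protein, most with the ending -like. There were 44, all tested, of which 10 were higher in rShh and 7 lower, and among the other 231 genes tested 50 were higher and 27 lower. Of all genes tested, 31.5% were called higher and 28.8% lower. For 37 of the 44, a coding row bears the symbol of that protein, paired by hand after the values were seen, 34 of them on the same chromosome. In 13 pairs both rows were called, and in all 13 they moved in the same direction. No such share over other pairs of genes is set beside this. Of the 37 coding rows 28 were called, and of the 37 long non-coding rows 15 were, where 60.3% of all genes tested were called. Some pairs not both called had opposite signs, as LOC108348143 (-0.31, not passed) and Tfb2m (0.45, called higher). AABR07044962 on chromosome 20, described as RAN binding protein 2, a nuclear pore component, was at 12.7, 13.2 and 11.2 CPM in rShh and at 4.65, 4.56 and 2.62 CPM in Control (1.65 ± 0.20, adjusted p = 6.3e-05). Ranbp2 itself, 289 kb away, was at 214 ± 10.1 CPM in rShh and 71.4 ± 16.6 CPM in Control, a log2 change of 1.58.

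LOC100912611, described as claspin-like after a protein of the DNA replication checkpoint, had 136, 113 and 120 counts in rShh and 12, 4 and 15 in Control (3.25 ± 0.48, adjusted p = 0.000207), and Clspn, on the same chromosome, showed a log2 change of 2.53. LOC100912578, the second most abundant gene of the set, is described as a mitochondrial stress-70 protein and showed a log2 change of -0.08, against -0.06 for Hspa9, the gene of that chaperone on another chromosome. Other same-direction pairs were AABR07059159 and Actr3b (2.31 and 1.54), AABR07033564 and Bach1 (0.64 and 0.77), and LOC100911851 and Itsn1 (-0.69 and -0.61). In 2 pairs the long non-coding row fell and the coding row did not pass, LOC102549506 with Klhl3 (-0.45 and -0.38) and LOC108348049 with Fat4 (-0.42 and -0.15). Rows with near-identical copies can share reads, so these values are uncertain.

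Most of the genes had a single transcript: 233 had 1 isoform row and 55 had 2 or more, 369 rows in all. Of the 10 genes with 2 or more isoforms and at least 2000 counts in sum, 4 had 1 isoform above 90% of the counts in every library. For Tug1 the 4-exon transcript of 5121 nt held 98.5%, 98.9% and 98.7% of the gene's counts in rShh, against 89.5%, 97.8% and 95.7% in Control. AABR07058158 had 17 isoform rows, the most of any gene, and its leading transcript, of 7 exons and 1034 nt, held 35.8%, 27.1% and 42.7% in rShh and 37.4%, 33.8% and 39.1% in Control. In LOC100910750, described as DHX15-like, the share varied within both groups. Its 4529-nt isoform held 100%, 26.5% and 1.80% of its counts in rShh and 100%, 58.7% and 100% in Control. In LOC103689920, named after its values were seen, the 4789-nt isoform held 100%, 8.36% and 100% in rShh and 58.0%, 100% and 100% in Control. Shares thus differed widely between libraries of a group, and no isoform was tested.

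At the edge of the selection, AABR07005779 and LOC108351589 had 60 counts over the 6 libraries, and AC095947 and AABR07061328 had 61. Just outside it, AABR07012100 had 59 counts and LOC102551683 had 58. AABR07005779 had 15, 3 and 4 counts in rShh and 0, 28 and 10 in Control, and LOC108351589 had 0, 20 and 7 in rShh and 0, 21 and 12 in Control. At this level single libraries decide a gene's direction, and none of the 4 genes just inside was called.

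The cells were checked against markers of their labelled type. Of 14 nucleus pulposus and notochord markers, 11 had a row and 7 of these reached 1 FPKM, with a summed level of 175 to 179 FPKM in the rShh libraries and 94.6 to 101 FPKM in the Control libraries. By edgeR, 4 of the 11 were higher in rShh and 5 were lower, so the sum was carried by a few genes. Acan, the gene of the main proteoglycan of the disc, averaged 71.0 ± 1.11 FPKM in rShh and 6.80 ± 0.905 FPKM in Control, and Hif1a, of the oxygen response, averaged 53.5 ± 2.75 FPKM in rShh and 16.5 ± 1.70 FPKM in Control. Lower in rShh were Cd24 (7.04 ± 0.607 FPKM in rShh and 23.2 ± 1.75 FPKM in Control), Krt8 (0.905 ± 0.119 FPKM in rShh and 5.42 ± 0.287 FPKM in Control) and Foxa2 (0.219 ± 0.0472 FPKM in rShh and 0.785 ± 0.142 FPKM in Control), and Pax1 averaged 20.4 ± 0.66 FPKM in rShh and 26.6 ± 2.18 FPKM in Control (SD, n = 3 each). Col2a1, also lower, stayed below 1 FPKM, at 0.0183 ± 0.0245 in rShh and 0.296 ± 0.0221 in Control, and Tbxt, Krt19 and Car12 were not analysed here. The leukocyte markers with a row (3 of 4) summed to at most 0.506 FPKM in rShh and 0.437 FPKM in Control and the epithelial ones (2 of 2) to at most 0.0214 FPKM in rShh and 0.144 FPKM in Control. The neural marker with a row, Tubb3 (1 of 3), averaged 9.20 ± 0.0138 FPKM in rShh and 73.3 ± 10.1 FPKM in Control, and the muscle markers (2 of 3) summed to 45.6 to 57.6 FPKM in rShh and 32.3 to 53.2 FPKM in Control, nearly all of it Acta1. The part of these differences in the changes of the long non-coding genes was not tested.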

How the data were processed

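Poly(A)-selected RNA of 6 samples was sequenced as paired 150-base reads from dUTP-marked libraries, per the labels' protocols. The tools named, per the submitters' processing notes, are HISAT2 2.0.4, cutadapt 1.9, edgeR, DESeq2 and StringTie 1.3.4d. No setting, strand option or genome build is given in the sources used here. The authors deposited whole-number counts per gene and per isoform, not normalized. They also deposited FPKM values, scaled to length and depth per the file headers, and other values per isoform, its length and exon number. Coordinates are those of the deposited tables, except the RefSeq promoters (GRCr8).

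All 19088 gene rows entered 1 fit with edgeR 4.0.16 in R 4.3.3: filterByExpr with a minimum count of 10 (14775 rows kept), TMM scaling, glmQLFit and glmQLFTest with group as the only term, two-sided. Adjustment was by Benjamini and Hochberg's method over all rows tested, the threshold was 0.05, and the common biological coefficient of variation was 12.7%. The test returns no standard error, so the one printed beside a log2 change is its absolute value divided by the square root of the test's F statistic. CPM values are TMM-scaled. Folds against 0 use 3 counts per library, which covers counting error only. The fit was tested on simulated data. Summaries used Python 3.11.15 and pandas 2.3.3. Alternatives were DESeq2 1.42.0, limma 3.58.1 on log2(FPKM + 1) or log2(FPKM + 0.1) where a row's mean reached 0.1 FPKM, other scalings and filters, a replicate block and leaving out each library.

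The genes and lists were chosen with earlier results of these data known. Named are the genes with a gene name, the 10 highest by FPKM, the 10 largest called changes in each direction with separate groups and a mean of at least 50 counts in the higher group, and those at the edge of the count minimum. Any other gene is marked as chosen with its values in view. Replicates of a group differed by far more than sampling noise (chi-square per degree of freedom of 10.5 to 50.5). No library was therefore counted as a repeat sequencing of another. The statistic compares libraries with counting noise only, so it cannot tell separate cultures from libraries prepared separately from the same culture. One neighbouring gene is not reported here.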

Additional observations from a re-analysis of the deposited data

Results flagged for a closer look

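Long non-coding genes of the X and Y chromosomes entered no comparison above, and 9 of the 27 such rows tested were called higher in rShh with every rShh library above every Control library. Of all genes tested, 31.5% were called higher, a share near that of these rows. Both Y rows were at 0 in Control, as were the Y genes Eif2s3y and Kdm5d. On the Y chromosome, AC239701 had 66, 50 and 37 counts in rShh and 0 in each Control library (fitted log2 change of 8.53), and AC242859 had 15, 28 and 21 counts in rShh and 0 in each Control library (7.27). On the X chromosome, AABR07037878 had 11, 16 and 13 counts in rShh and 0 in each Control library (6.60). Fitted changes of these 3 genes depend on the prior count. The other 6, all on X, had log2 changes of 2.49 (AABR07042454), 2.03 (AC130862), 1.60 (AABR07039104), 0.97 (AABR07037528), 0.86 (AABR07039234) and 0.44 (AABR07039328).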

How the results depend on the processing

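Over the alternative fits, 43 to 67 genes were called higher and 31 to 40 lower, against 60 and 34. By DESeq2, 58 were higher and 38 lower, and 87 of the 94 called genes were called again. Leaving out each library gave 43 to 64 higher and 31 to 36 lower. Deviations of same-numbered samples were hardly correlated (-0.079, 0.005 and -0.011), and those of differently numbered samples ran from -0.077 to 0.081. With 3 samples per group this cannot exclude a pairing of the samples. A fit with the replicate as a block called 51 higher and 33 lower. With a summed count of at least 600, 28 were higher and 22 lower, since fewer genes are counted, and at an adjusted p below 0.01, 36 were higher. The difference in the share of counts, 0.0195 percentage points, was 0.012 without the gene with the most counts and 0.033 as a share of summed FPKM. Within 5 kb in place of 50 kb, 18 pairs with a coding gene moved in the same direction, as fewer pairs are counted, and by DESeq2 calls 37 of 44 did. Of the results for 34 named genes, 14 fell short of the threshold in the same direction, all in AC108574, AABR07059159 and AABR07052502. Without single libraries the log2 change ran from -2.16 to 0.20 in AABR07005779 and from -1.92 to 0.18 in LOC108351589, turning positive in both without Control replicate 2. In AABR07061328 it ran from -0.44 to 0.80 and turned negative without rShh replicate 2 (-0.04) or Control replicate 3. These 3 genes were not called. Of all genes tested, 29.8% were called below 600 counts and 67.6% from 600 counts on.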

Other observations

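On the X chromosome, the lincRNA row AABR07039356 at X:74333329-74337975 had 1, 2 and 12 counts in the rShh libraries and 2444, 2037 and 1156 counts in the Control libraries, the largest log2 change of the 27 long non-coding rows tested on X and Y (log2 change of -8.81 ± 0.44, adjusted p = 1.08e-07 by edgeR). The rows AABR07041096 and AABR07037436, also on X, were the other 2 called lower, with log2 changes of -0.91 and -0.83. Kantr, a lincRNA on X that carries a gene name, had 60, 73 and 57 counts in rShh and 59, 38 and 38 in Control and did not pass (log2 change of 0.19, adjusted p = 0.683).

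AABR07058955, at chr7:145375147-145379002, lies between Pde1b and Calcoco1, where RefSeq has the lncRNA Cistr. It had 51, 57 and 63 counts in rShh and 15, 14 and 24 in Control, with no overlap (log2 change of 1.36 ± 0.48, adjusted p = 0.0301). Calcoco1, 56582 bases away, moved the other way, at 35.7 ± 2.32 CPM in rShh and 55.2 ± 8.17 CPM in Control (adjusted p = 0.00048). The gene was chosen after its values were seen.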
